A study of Mus musculus with 67 samples.

Results

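The cytosolic ribosomal protein genes of these data are the rows whose symbol is Rps, Rpl or Rplp followed by a number and at most 1 further letter (a, x, y or l), together with Rpsa. The rule found 82 rows in each of the 3 count tables, of 24421 rows in the table of the LPS experiment and 24411 in the tables of the driver and digest experiments. They comprise 32 genes of the small (40S) subunit, 47 of the large (60S) subunit and the 3 genes of the P stalk, Rplp0, Rplp1 and Rplp2. Besides the core proteins the rule takes in the paralogs Rps27l, Rps4l, Rpl3l, Rpl10l, Rpl32l and Rpl39l. Fau, Rps3a1, Rpl36al, Rpl7l1 and Rpl22l1 are among those that fall outside it.

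RNA was sequenced from 67 libraries of mouse brain. All mice were C57BL/6J and homozygous for the RiboTag allele, which the labels spell RLP22HA/HA, and carried 1 copy of either the inducible driver (CX3CR1CreER/WT) or the constitutive driver (CX3CR1Cre/WT). Cre recombination makes a cell produce Rpl22, a 60S protein, with an HA tag, so that ribosomes of that cell, with the mRNA on them, can be collected from homogenised tissue by an anti-HA antibody. Cx3cr1 is expressed by microglia and by other mononuclear phagocytes, so the driver is not limited to microglia. The driver experiment held pull-down (IP), IgG1 control pull-down (IgG) and total extract (input) libraries of CX3CR1CreER mice given tamoxifen (3 each), CX3CR1CreER mice without tamoxifen (2 each) and CX3CR1Cre mice, which received none (3 each). In the digest experiment, all from tamoxifen-treated CX3CR1CreER mice, IP (3), IgG (4), cells sorted after a 20 min Collagenase D and DNase digest (4) and cells sorted without it (4) were compared. The LPS experiment used the same genotype with tamoxifen and took IP, IgG, sorted cells (sort) and anti-HA pull-downs from sorted cells (sortIP) from mice 3 h after 2.5 mg/kg LPS (4 each) and from PBS controls (3 each). Tamoxifen was given by gavage as 4 doses of 5 mg at 4 to 6 weeks of age, and the age at killing is not given in the labels. Sorted cells were GR1 negative, CD45 intermediate and CD11b positive. Anti-HA was used at 125 µg and IgG1 at 1 µg, so the antibody amounts of the IP and its control differ. Library totals ran from 166851 to 3513317 counted reads, and the shallowest groups were the IP without tamoxifen (186099 and 219521 reads) and the sortIP libraries.

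Ribosomal proteins and ribosomal RNA make up the 2 subunits of the cytosolic ribosome, and the P stalk recruits the elongation factors. Their mRNAs are terminal oligopyrimidine (TOP) mRNAs: they begin with a C followed by a run of pyrimidines, which LARP1 and the mTOR pathway use to switch their translation on and off together. A cell that grows or is activated makes more ribosomes, and this starts with ribosomal RNA synthesis and the nucleolar biogenesis factors. In a RiboTag pull-down the protein product of one of these genes is the handle, but the reads report the mRNAs that ribosomes carry, ribosomal protein mRNAs included.

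The 30 bases around the annotated start of 4 genes on which the results below turn are printed from RefSeq (GRCm38.p6), 10 before and 20 from the start, as examples of windows that hold a run of at least 8 C or T letters on the sense strand. The longest run is in capitals, wherever it lies in the window, and need not begin at the annotated start.
Rplp2: cagcgTCTTCCTTTCgccgccggacgccgc
Rps6: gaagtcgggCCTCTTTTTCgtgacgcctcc
Rps9: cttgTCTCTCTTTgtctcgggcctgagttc
Rpl39: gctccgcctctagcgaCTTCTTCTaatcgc
They lie at chr7:141447641-141447670 (+), chr4:86857348-86857377 (-), chr7:3704031-3704060 (+) and chrX:37085203-37085232 (-). Where a gene had several starts, the window with the longest run is shown. Of the 82 symbols, 61 matched a start in the table. Such a run stood in the window of 24 of these 61 genes (39.3%) and of 3517 of all 27025 genes of the table (13%). The letters describe the annotated starts only, since the deposited counts hold no positions.

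Reads on these genes were uneven. Rplp1 alone took 12.5%, 16.0% and 14.0% of all their reads in the driver, digest and LPS experiments, and the 10 highest genes took between 62.0% and 63.7%. By contrast, 20, 21 and 15 of the 82 genes had a median under 10 reads per library. After the filter on low counts, 69 genes were tested in the driver, 66 in the digest and 74 in the LPS experiment. The genes left out held at most 0.204% of the reads of the family. They include core proteins that every ribosome contains: Rps23, a protein of the decoding centre, had 46, 51 and 93 reads in all libraries of the driver, digest and LPS experiments, and Rpl12, a protein at the base of the stalk, had 20, 57 and 151. Many ribosomal protein genes have processed pseudogenes and near-identical copies, and how reads shared between copies were counted is not given in the sources used here, so the level of any single gene is uncertain and levels are not compared between genes. The paralogs known from testis and striated muscle had few reads: Rpl10l had 0, 0 and 1 reads, Rpl3l had 22, 4 and 4, and Rpl39l had 8, 17 and 46.

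The family's share of all counted reads was highest in whole-brain pull-downs. In tamoxifen-treated CX3CR1CreER mice of the driver experiment it was 3.52, 3.36 and 3.31% in the IP, 2.02, 1.51 and 2.11% in IgG and 1.88, 2.04 and 1.61% in input. No IgG or input library reached any of these IP libraries. The digest experiment gave 3.17, 3.10 and 3.30% in the IP and 1.74, 1.75, 1.50 and 1.64% in IgG, and the PBS mice of the LPS experiment 3.72, 3.58 and 3.79% against 1.61, 1.59 and 1.67%. Sorted cells were lower: 1.61, 1.57, 1.48 and 1.52% after the digest, 1.39, 1.40, 1.28 and 1.29% without it, and 1.51, 1.53 and 1.51% in the PBS mice. The IP without tamoxifen, at 1.73 and 1.53%, lay within the range of its input and IgG libraries, and the CX3CR1Cre IP, at 2.20, 2.10 and 2.49%, lay above its inputs and below every IP of tamoxifen-treated CX3CR1CreER mice, with overlap with its IgG (2.16, 1.86 and 1.82%).

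**Figure D1:**
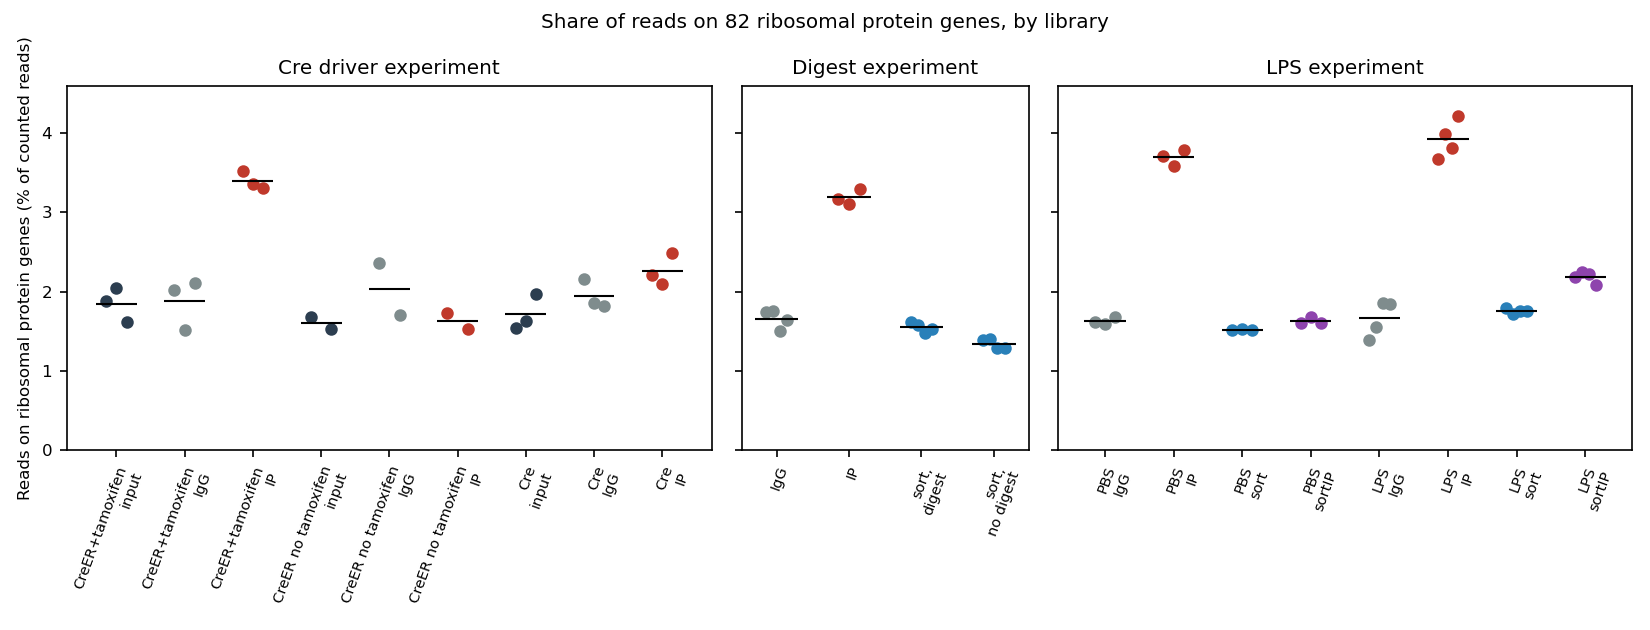
Percent of counted reads on the 82 ribosomal protein genes in each of the 67 libraries, by group and experiment (bars: group means; red, IP; grey, IgG; black, input; blue, sorted cells; purple, pull-down from sorted cells). The IP libraries of tamoxifen-treated CX3CR1CreER mice lie at 3.10% or higher, and all others at 2.49% or lower.

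The make-up of the family's reads also differed, measured on the 60S and 40S genes with the P-stalk genes counted in neither. Reads on 60S genes per read on 40S genes were 1.74, 1.69 and 1.85 in the input of tamoxifen-treated CX3CR1CreER mice, 1.39, 1.32 and 1.32 in the IP and 1.16, 1.20 and 1.17 in IgG, with no overlap between the 3 groups. Cells sorted in the digest experiment were at 0.95, 0.93, 1.03 and 0.94 with the digest and 0.91, 0.97, 0.99 and 0.93 without, below its IP libraries (1.25, 1.34 and 1.20). In the LPS experiment all 28 libraries lay between 1.10 and 1.35, and IP and IgG overlapped.

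In tamoxifen-treated CX3CR1CreER mice, 43 of 69 genes were higher in the IP than in input and 3 lower, where 28.7% of all genes tested were higher and 35.5% lower. The median log2 fold change was 1.00 for the family and -0.28 for all genes. Small-subunit genes (20 of 28 higher, median 1.04), large-subunit genes (20 of 38, median 0.94) and the 3 P-stalk genes (all higher, median 1.67) took part. Against IgG, 39 of 69 were higher and 9 lower (all genes 30.8% and 35.3%), with a median of 0.75. In the digest experiment the counts were 40 higher and 9 lower of 66 (all genes 26.7% and 47.8%, median 0.72 against -0.47 for all genes). In the LPS experiment they were 61 higher and 1 lower of 74 in PBS mice (all genes 33% and 32%, median 1.56) and 67 higher and 0 lower in LPS mice (all genes 37.6% and 35.3%, median 1.66). For that 0, edgeR had 0 genes lower at an unadjusted p under 0.05, and DESeq2, whose size factors put the median of all genes at -0.64, called 53 higher and 2 lower. Scaling moved the medians of the family and of all genes together: the family's median minus that of all genes was 1.28 against input and 0.95 against IgG in the driver experiment, and total-count scaling left these at 1.28 and 0.94 while it lowered the family's own medians to 0.53 and 0.22.

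GEO's labels give microglia as the cell type of every library, but the marker levels differ along with these comparisons. The summed level of 21 microglia markers was 96191 to 121449 CPM (counts scaled to a common library size, using TMM factors) in the IP of tamoxifen-treated CX3CR1CreER mice, 1180.3 to 1455 in IgG and 1430.3 to 1504 in input. The 16 neuron markers summed to 4419 to 5446, 13218 to 14517 and 11258 to 13499 CPM, and none of them was at 0 reads in the IP. The part of cell composition in the family's change was not tested. In such bulk samples, fewer cells of a type and less RNA per cell cannot be told apart.

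Rpl22, the tagged protein, is set apart here. Its CPM was 162, 113 and 152 in the IP of tamoxifen-treated CX3CR1CreER mice, 117, 143 and 124 in input and 81.1, 75.1 and 99.4 in IgG. The IP overlapped input and lay above IgG. The log2 fold change, given here and below with its standard error and with a p-value adjusted over all genes tested, was 0.16 ± 0.19 (adjusted p = 0.47) against input and 0.75 ± 0.19 (adjusted p = 9.6e-04) against IgG, which is close to the family's median for IgG and below it for input. The call against IgG was lost under total-count scaling, at 0.22. IgG itself lay below input, with -0.59 ± 0.19 (adjusted p = 0.013), a call lost without IgG replicate 1 or 2 or without input replicate 2, at -0.56, -0.51 and -0.48. The digest and LPS experiments gave 0.74 ± 0.14 (adjusted p = 1.7e-05) and, in PBS mice, 0.99 ± 0.20 (adjusted p = 2.4e-05) for IP against IgG, and the second of these was 0.47 and not called with DESeq2. All mice carry the tagged allele on both chromosomes, and a count per gene does not separate recombined from unrecombined transcripts. Without Rpl22 the family's median against input was 1.00.

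The paralog Rpl22l1, which can take the place of Rpl22 in the ribosome, went the other way. Its CPM was 11.6, 16.4 and 9.78 in the IP of tamoxifen-treated CX3CR1CreER mice, 103, 75.1 and 92.3 in IgG and 40.6, 41.7 and 31.2 in input. All 3 IP libraries lay below all 6 others. The log2 fold change was -2.86 ± 0.32 (adjusted p = 7.5e-10) against IgG and -1.60 ± 0.34 (adjusted p = 9.5e-05) against input. In the digest experiment the IP held 3.79, 3.11 and 3.19 CPM (5 reads in each of the 3 libraries), IgG 8.58, 45.3, 26.9 and 36.9 and sorted cells 77.2, 91.2, 75.5 and 68.6 with the digest. Sorted cells were higher than the IP by 4.52 ± 0.40 (adjusted p = 3.0e-10). The LPS experiment had the same order for sorted cells and IP in PBS mice, 95.3, 69.2 and 88.3 against 10.2, 11.8 and 21.4 CPM and a log2 difference of 2.56 ± 0.43 (adjusted p = 9.2e-06). Of the other genes outside the rule, Fau, whose product is a fusion of a ubiquitin-like protein and Rps30, was 1.85 ± 0.24 in IP against IgG of tamoxifen-treated mice in the driver experiment, 0.53 ± 0.18 in the digest experiment and 1.3 ± 0.17 in PBS mice of the LPS experiment. Rpl36al was 1.77 ± 0.22, 1.24 ± 0.16 and 1.97 ± 0.23, and all 6 of these values passed the test. Rps3a1 did not pass in the driver experiment (adjusted p = 0.99) and was 2.05 ± 0.28 (adjusted p = 1.7e-07) in the PBS mice of the LPS experiment.

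**Figure D2:**
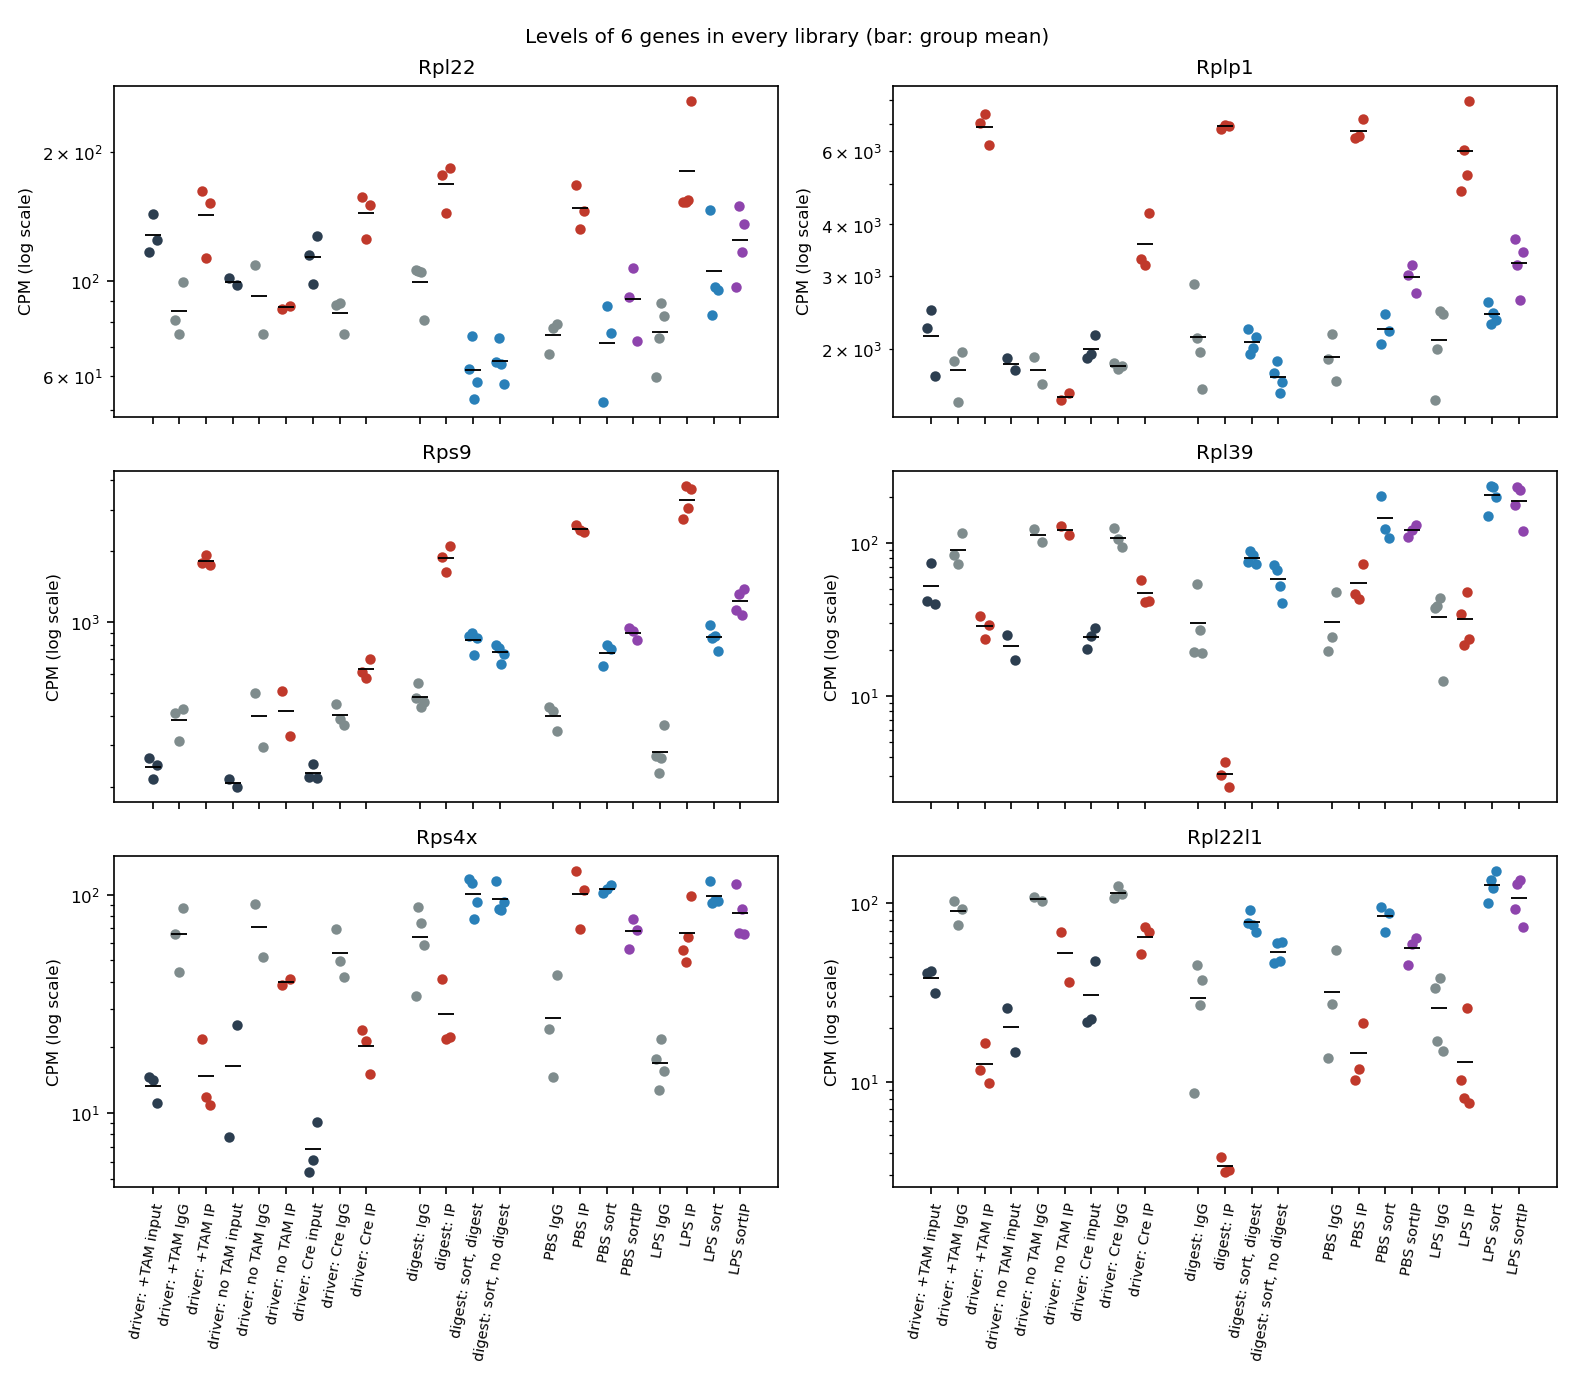
CPM (log axis) of Rpl22, Rplp1, Rps9, Rpl39, Rps4x and Rpl22l1 in every library by group (bars: means; red, IP; grey, IgG; black, input; blue, sorted cells; purple, pull-down from sorted cells; TAM, tamoxifen). Rplp1 and Rps9 are high in IP libraries of tamoxifen-treated CX3CR1CreER mice, whereas Rpl39 and Rpl22l1 reach their lowest values in the IP of the digest experiment.

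The 3 P-stalk genes rose in the whole-brain IP of tamoxifen-treated CX3CR1CreER mice over IgG. Rplp0, the stalk's anchor, was at 1869, 2048 and 1489 CPM in the IP against 426, 302 and 419.5 in IgG and 459.7, 664 and 477 in input, and rose by 2.24 ± 0.20 (adjusted p = 1.9e-12) over IgG. Rplp1 was at 7018, 7369.5 and 6210.0 CPM in the IP, 1878, 1495 and 1968 in IgG and 2255, 2495 and 1723 in input, and rose by 1.95 ± 0.18 (adjusted p = 9.2e-12). For both genes the IP lay above both controls without overlap. Rplp2 rose by 0.91 ± 0.27 (adjusted p = 0.0040). In the digest experiment the 3 genes rose by 1.46 ± 0.13, 1.68 ± 0.13 and 1.50 ± 0.18, and in PBS mice of the LPS experiment by 1.76 ± 0.19, 1.81 ± 0.19 and 2.31 ± 0.21, each past the threshold of an adjusted p under 0.05.

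Among 40S genes, Rps9 had the largest change against input. It was at 1788, 1938 and 1745 CPM in the IP, 412, 312 and 427 in IgG and 264, 217 and 247 in input, and rose by 2.91 ± 0.20 (adjusted p = 2.6e-15) over input. The IP was far above both controls, and IgG above input. Rps9 also rose over IgG in the digest experiment (1886, 1638 and 2099.5 against 475, 550.1, 437 and 459 CPM, 1.96 ± 0.13, adjusted p = 5.1e-17). Rps27l, a p53-responsive paralog of Rps27, was at 71.3, 79.0 and 53.6 CPM in the IP and 11.7, 11.9, 4.24 and 5.90 in IgG of the digest experiment, a log2 difference of 2.93 ± 0.27 (adjusted p = 2.6e-12) and the largest rise of the family there. In the driver and LPS experiments it was 2.40 ± 0.30 and 2.00 ± 0.24. Other 40S genes named for their size were Rps24 (2.12 ± 0.25 against input) and Rps10 (1.99 ± 0.30). Rps6, the substrate of the S6 kinases, did not pass in the driver experiment (0.43 ± 0.35 against IgG, adjusted p = 0.29) or in the digest experiment. Its CPM was 20.5, 18.0 and 23.6 in the IP and 17.2, 23.2, 26.9 and 29.5 in IgG of the digest experiment, groups that overlapped, and its log2 difference was -0.20 ± 0.24 (adjusted p = 0.47). It rose in the LPS experiment, by 0.70 ± 0.23 (adjusted p = 0.0070) in PBS mice. Rpl17, a 60S protein singled out after its values were seen, was the 1 gene lower in the IP of PBS mice, with -1.79 ± 0.53 (adjusted p = 0.0026) on 1, 2 and 8 reads in the IP and 17, 9 and 9 in IgG.

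Some core genes ran against the family. Rpl39, a small 60S protein lining the exit tunnel, was at 3.03, 3.73 and 2.55 CPM in the IP of the digest experiment (4, 6 and 4 reads) and 19.5, 54.2, 26.9 and 19.2 in IgG. All IP libraries lay below all IgG libraries, with a log2 difference of -3.31 ± 0.41 (adjusted p = 4.5e-08). In the driver experiment the IP (33.4, 23.8 and 29.3 CPM) lay below IgG (83.3, 72.7 and 115), with a log2 difference of -1.63 ± 0.26 (adjusted p = 1.5e-06). The PBS mice of the LPS experiment did not show this: 46.7, 43.4 and 73.4 against 19.6, 24.2 and 48.1 CPM, with overlap and 0.82 ± 0.39 (adjusted p = 0.066). Rps15a, a 40S protein, had log2 differences of -2.06 ± 0.26 in the driver and -1.59 ± 0.26 in the digest experiment, both called. The other genes lower in both were Rps4x, Rps2, Rpl5, Rpl15 and Rpl3, of which Rps4x and Rpl15 in the digest experiment and Rpl3 in the driver experiment had overlapping groups. In the driver and digest experiments they stood at -2.14 and -1.22 for Rps4x, -0.96 and -1.11 for Rps2, -0.99 and -1.10 for Rpl5, -0.82 and -0.76 for Rpl15 and -0.76 and -0.95 for Rpl3. The digest experiment's IP and IgG libraries fitted alone gave 47 genes higher and 4 lower, and Rpl3 and Rpl5 were then not called, at -0.52 and -0.68. That fit put the median of the family at 1.16 and that of all genes at -0.085. The family's median minus that of all genes was 1.25 there and 1.18 in the main fit.

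Of the 64 genes tested in all 3 experiments, 49 had the same sign in IP against IgG of tamoxifen-treated CX3CR1CreER mice, 29 were called higher in each and 0 called lower in each with edgeR. Such agreement was not counted over all genes, so these counts are not read as particular to the family. Across these 64 genes, Pearson's r of the log2 fold changes was 0.71 between the driver and digest experiments, 0.64 between the digest and LPS experiments and 0.45 between the driver and LPS experiments. Genes are not independent replicates, and those with few reads enter with the same weight as deep ones. Called in opposite directions were 3 genes. Rps4x, an X-linked 40S protein, was at 21.8, 11.9 and 10.9 CPM in the IP against 66.1, 44.4 and 87.3 in IgG of the driver experiment (-2.14 ± 0.36, adjusted p = 2.9e-06). In PBS mice of the LPS experiment it was at 128, 69.6 and 105 against 24.3, 14.7 and 42.7 (1.84 ± 0.25, adjusted p = 3.5e-09). The groups did not overlap in either experiment. Rpl30, a 60S protein, was lower in the IP of the driver experiment (-1.35 ± 0.43, adjusted p = 0.0069) and higher in the digest (0.60 ± 0.23, adjusted p = 0.017) and LPS (0.90 ± 0.37, adjusted p = 0.030) experiments. The first of these calls was lost without IgG replicate 3 (adjusted p = 0.063). Rpsa, a 40S protein also known as the laminin receptor, was at 449, 554 and 466 CPM in the IP and 889.7, 584, 597 and 564 in IgG of the digest experiment (-0.43 ± 0.14, adjusted p = 0.0065), against 1.23 ± 0.18 (adjusted p = 3.3e-07) and 0.76 ± 0.30 (adjusted p = 0.030) in the driver and LPS experiments. The experiments were counted in separate tables, and the difference between them was not tested.

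**Figure D3:**
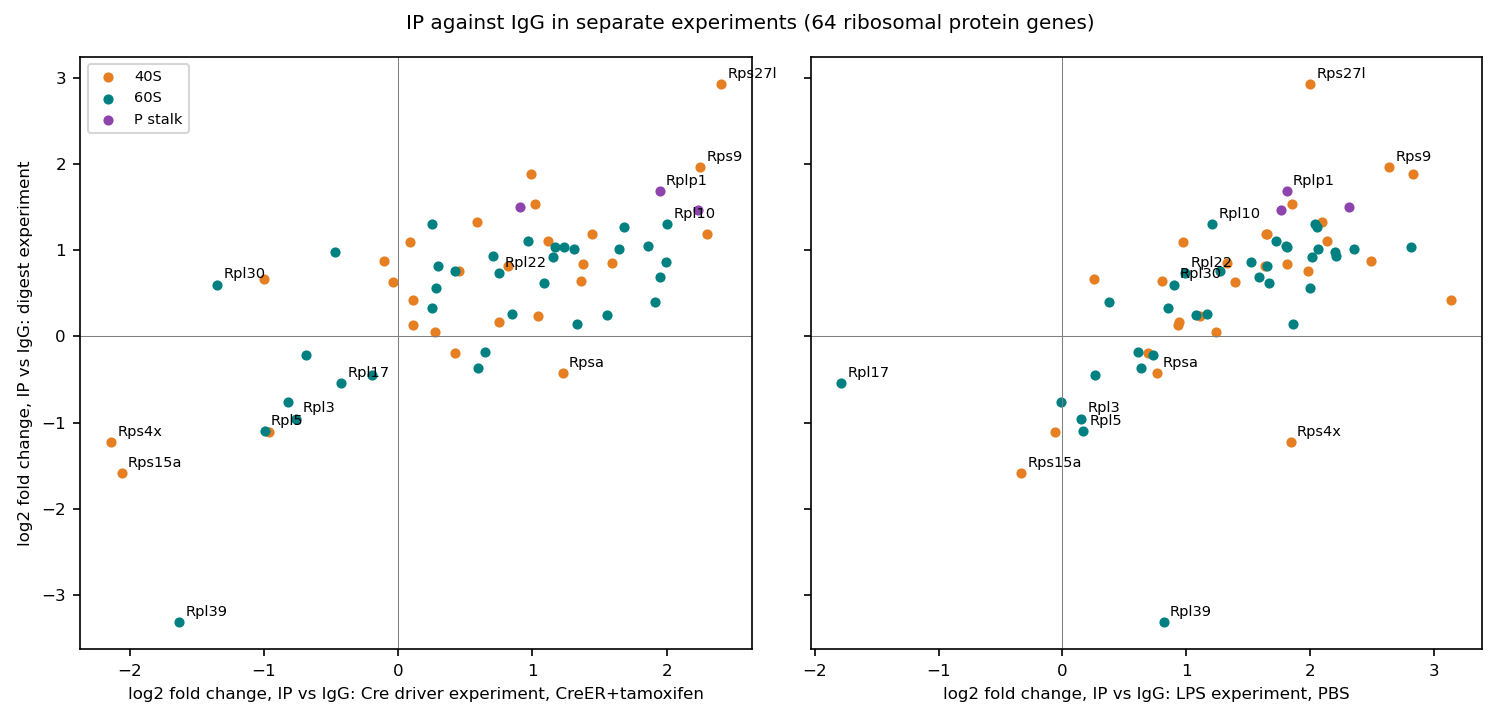
Log2 fold change of IP against IgG for the 64 ribosomal protein genes tested in all 3 experiments, with the digest experiment on the vertical axes and the driver experiment (left) or the PBS mice of the LPS experiment (right) on the horizontal axes (each point a gene; orange, 40S; teal, 60S; purple, P stalk). Most points lie above 0 on both axes, while Rpl39, Rps4x and Rps15a lie below 0 on both axes of the left panel, and Rps4x is at 1.84 on the horizontal axis of the right panel.

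IgG was not a copy of input for this family. In tamoxifen-treated CX3CR1CreER mice, 23 of 69 genes were higher in IgG than in input and 9 lower (all genes 16.6% and 18.4%), with a median of 0.28. Rps4x rose most among the named genes, from 14.7, 14.2 and 11.2 CPM in input to 66.1, 44.4 and 87.3 in IgG (2.31 ± 0.33, adjusted p = 1.1e-06), and Rps27l fell by 1.42 ± 0.31 (adjusted p = 4.0e-04). The IP held 21.8, 11.9 and 10.9 CPM of Rps4x, and its log2 difference from input was 0.17 ± 0.41 (adjusted p = 0.73).

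The rise of the family differed between drivers and with tamoxifen. In CX3CR1Cre mice, 38 of 69 genes were higher in the IP than in input and 1, Rpl15, was lower, a call lost without input replicate 3 or IP replicate 2 (all genes 18.1% and 16.8%), with a median of 0.90. Against IgG, 17 were higher and 9 lower (all genes 20.5% and 18.3%), a split that turned to 12 higher and 13 lower when libraries were scaled by total counts. Compared directly, 27 genes were lower and 2, Rpl39 and Rps15a, higher in the CX3CR1Cre IP than in the IP of tamoxifen-treated CX3CR1CreER mice (all genes 25.6% lower and 30.2% higher), with a median of -0.39 against 0.20 for all genes. Total-count scaling gave 17 lower and 5 higher there. The call for Rpl39 (0.70) was lost with DESeq2, at 0.53, and without CX3CR1Cre IP replicate 1 or tamoxifen-treated IP replicate 2 or 3. Rplp0 was at 506, 593 and 563 CPM in the CX3CR1Cre IP with a log2 difference of -1.70 ± 0.19 (adjusted p = 1.5e-09) from the other driver. Replicate 1 of the CX3CR1Cre IP stood apart in its markers. Microglia markers summed to 3729.7, 8069.8 and 8952 CPM in replicates 1, 2 and 3 of this IP, astrocyte markers to 6132, 2195 and 2179, oligodendrocyte markers to 5882, 1789 and 1904 and neuron markers to 14674, 19019 and 17761. Without replicate 1 the counts were 35 higher and 1 lower against input, 17 higher and 9 lower against IgG, and 24 lower and 1 higher against the IP of tamoxifen-treated CX3CR1CreER mice. In CX3CR1Cre mice, microglia markers summed to 1408 to 1606 CPM in input and 1278 to 2295 in IgG. Neuron markers summed to 11020 to 13191 in input and 13570 to 17031 in IgG. All 3 CX3CR1Cre IP libraries thus lay above every input for both marker sets. The IP of tamoxifen-treated CX3CR1CreER mice held 96191 to 121449 CPM of microglia and 4419 to 5446 of neuron markers, so the 2 drivers' IPs differ in cell types. The part of the markers in the difference was not tested.

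Without tamoxifen, 6 of 69 genes were higher in the IP than in input and 1 lower (all genes 6.44% and 4.46%), a share near that of all genes. Rpl39 was among them, at 129 and 113 CPM against 25.2 and 17.3 in input (2.51 ± 0.36, adjusted p = 3.0e-06), as were Rps25 (2.26 ± 0.57), Rps15a, Rps9 (1.03 ± 0.25), Rpl37a and Rpl21. Rpl13, a 60S protein, fell by 1.04 ± 0.26. The total of 7 dropped to 1 without IP replicate 1 and to 3 without input replicate 2, and was 13 when these groups were fitted alone. Tamoxifen-treated IP against this IP gave 37 genes higher and 3 lower (all genes 18.3% and 16.4%), with a median of 0.97. The 3 lower genes were Rpl39 (-2.06), Rps15a (-1.87) and Rps4x (-1.42), the last not called without either of the IP libraries that had no tamoxifen. Total-count scaling gave 23 higher and 3 lower. This comparison rests on 2 libraries of at most 219521 reads. Microglia markers were at 17826 to 20752 CPM in them, above their input (1487 to 1626).

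**Figure D4:**
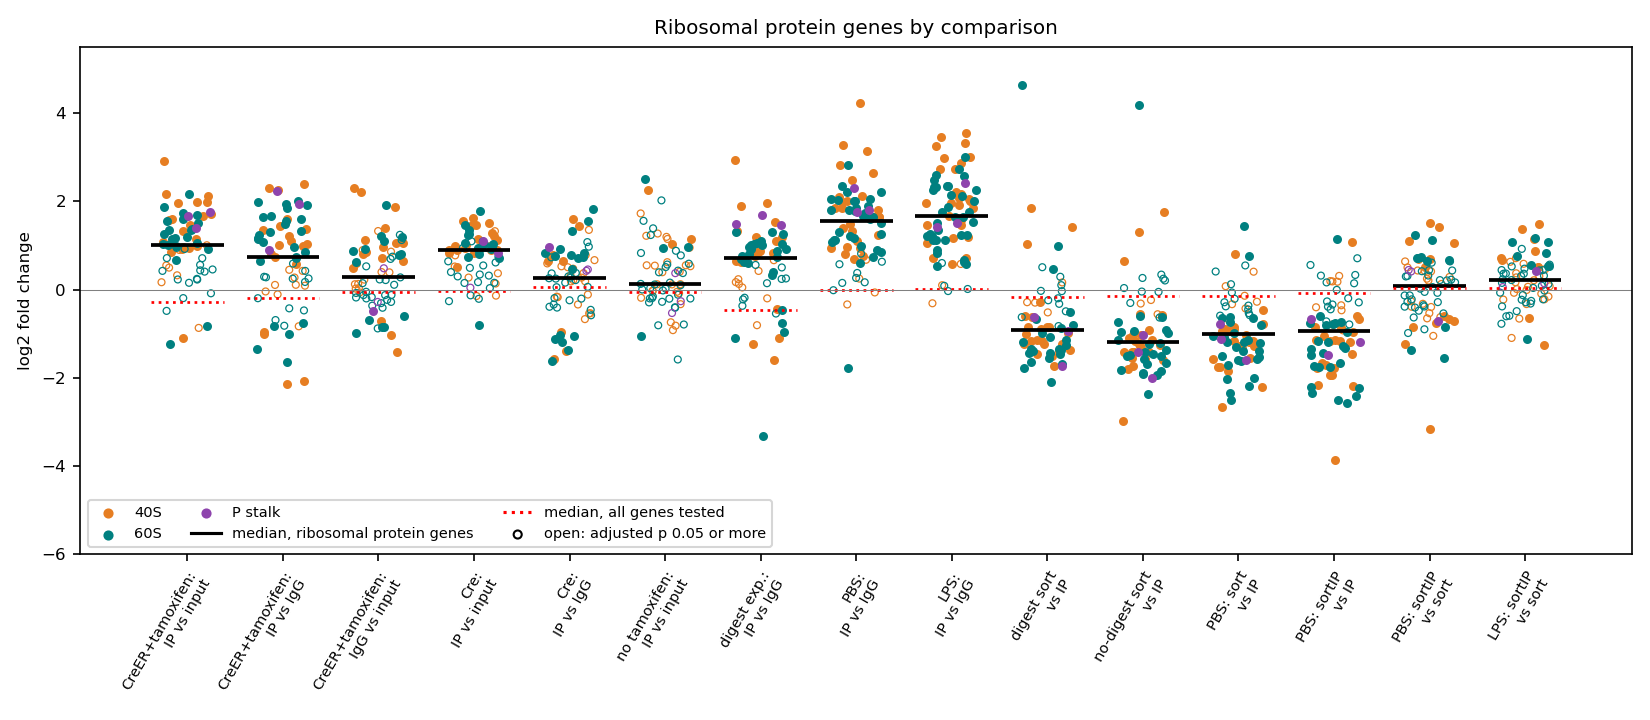
Log2 fold change of every tested ribosomal protein gene in 15 comparisons (each point a gene; filled, adjusted p under 0.05; black bar, median of the family; dotted red bar, median of all genes tested). The family's median lies above that of all genes in IP against input or IgG and below it in sorted cells or sortIP against IP. The gap is small in sortIP against sorted cells (0.19 in LPS mice), in IP against input without tamoxifen (0.19) and in CX3CR1Cre IP against IgG (0.20).

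Sorted cells held less of the family than the whole-brain pull-down. After the digest, 45 of 66 genes were lower in sorted cells than in the IP and 6 higher (all genes 41.1% and 31.6%), with a median of -0.91 against -0.18 for all genes. Without the digest, 50 were lower and 4 higher (all genes 40.9% and 31.9%, median -1.19). In PBS mice of the LPS experiment, 52 of 74 were lower in sorted cells and 3 higher (all genes 38.7% and 33.2%, median -1.01). Of 66 genes tested in both experiments, 59 had the same sign for sorted cells (with the digest) against the IP, 39 were lower in both and 3 higher in both. Agreement between the experiments was not counted over all genes, so no baseline stands beside these counts.

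Rplp1 was at 2238, 1954, 2014 and 2146 CPM in cells sorted after the digest and 6807, 6943 and 6922 in the IP, and fell by 1.72 ± 0.13 (adjusted p = 1.8e-14). Every sorted library lay below every IP library. The 60S genes Rpl37a (-2.09 ± 0.16), Rpl35a (-1.77 ± 0.20) and Rpl26 (-1.69 ± 0.15) were among those with the largest falls, and Rpl22 fell by 1.43 ± 0.15. In PBS mice of the LPS experiment, Rps19, a 40S protein, had 36.7, 37.4 and 47.7 CPM in sorted cells and 237, 247 and 280.5 in the IP (-2.66 ± 0.23, adjusted p = 2.6e-16), and Rpsa had 169.6, 129 and 135 in sorted cells and 581, 592 and 837 in the IP (-2.20 ± 0.33, adjusted p = 1.9e-06). Sorted cells lay below the IP without overlap for both genes.

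The 3 genes higher in sorted cells in both experiments were Rpl39, Rps15a and Rpl30. Rpl39 was at 75.0, 88.5, 83.3 and 72.5 CPM after the digest and 71.6, 66.8, 52.6 and 40.5 without it, against 3.03, 3.73 and 2.55 in the IP, a log2 difference of 4.64 ± 0.37 (adjusted p = 7.2e-12) with the digest. In PBS mice it was at 204, 123 and 108 in sorted cells and 46.7, 43.4 and 73.4 in the IP (1.44 ± 0.34, adjusted p = 5.9e-04). Rps15a was at 1.04 and 0.82 in the digest and LPS experiments, and Rpl30 at 0.48 and 0.77. Both calls for Rpl30 were lost with DESeq2, and in the digest experiment without any 1 of the IP libraries, at 0.41 to 0.52. Rpl3 and Rps27 were called in opposite directions: Rpl3, at the peptidyl transferase centre, was 0.98 ± 0.28 (adjusted p = 0.0023) in the digest and -0.64 ± 0.25 (adjusted p = 0.021) in the LPS experiment, and Rps27 was 1.42 ± 0.49 (adjusted p = 0.0090) and -1.56 ± 0.29 (adjusted p = 2.6e-06). Rps27 had 2, 4 and 5 reads in the IP and 7, 12, 9 and 3 in sorted cells of the digest experiment, where the groups overlapped.

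Beside these falls stand the marker levels. Microglia markers summed to 84334 to 92312 CPM in cells sorted after the digest and 84071 to 92765 in the IP, while neuron markers summed to 12.4 to 30.4 and 2960.4 to 3143, with Syt1, Gad2, Calb1 and Pvalb at 0 reads in the sorted cells. Border macrophage markers, 10 in the list, were lower in the sorted cells, at 269 to 330 CPM against 1216 to 1327 in the IP. Neutrophil and monocyte markers, 12 in the list, summed to 244, 8.78, 11.3 and 7.63 CPM in replicates 1 to 4 of these sorted cells. The IP held 4.35 to 7.66. In sorted replicate 1, S100a9, Ngp, S100a8 and Camp had 88, 61, 38 and 28 reads, against 0 to 4 in each of the other sorted replicates. Mmp8, Retnlg, Elane and Mpo were at 0 in the sorted cells. Immediate early genes, 10 in the list, summed to 17378 to 20145 against 644 to 712 CPM, and 6 nuclear long noncoding RNAs to 1472 to 1901 against 27.4 to 41.7. Their part in the result was not tested. The protocol differs too, since IP tissue was flash-frozen and homogenised with cycloheximide, and sorted cells came from perfused brain through a Percoll step. Whether the sort of the LPS experiment included the digest is not given in the labels.

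The enzymatic digest itself gave no called gene of the family. With edgeR, 0 of 66 genes passed, where 0.121% of all genes were higher and 0.0173% lower after the digest. At an unadjusted p under 0.05, 21 genes were higher and 0 lower, DESeq2 called 3 and the fit of these groups alone called 4, all higher. The shares of all genes just given are for adjusted p, and no share at the unadjusted threshold is given here to set beside the 21. Of the 66 log2 fold changes 56 were above 0, with a median of 0.26 against 0.00 for all genes, and the family's share of reads was higher in all 4 digest libraries than in all 4 without. Rplp0 was at 446, 446, 535 and 457 CPM with the digest and 332, 365, 305 and 350.3 without, groups that did not overlap, with a log2 difference of 0.48 ± 0.12 (adjusted p = 0.14).

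The pull-down from sorted cells was closer to sorted cells than to the whole-brain IP in how many genes of the family were called. In PBS mice, 13 of 74 genes were higher and 11 lower in sortIP than in sorted cells (all genes 16.6% and 15.2%), with a median of 0.09. These shares are near those of all genes, and the split moved with the settings, to 7 higher and 20 lower with total counts, 16 and 6 with DESeq2 size factors and 19 and 3 without the filter on low counts. The total fell to 11 without PBS sort replicate 3, to 12 without PBS sortIP replicate 1, to 14 without PBS sortIP replicate 3 and to 15 without PBS sort replicate 2. Rps2 (1.50 ± 0.37), Rps4l (1.42 ± 0.25) and Rpl8 (1.24 ± 0.18) rose, and Rpl30 (-1.56 ± 0.45) fell, which was not called without sortIP replicate 1. Rpl8 was at 1425, 1203 and 1356 CPM in sortIP and 612, 545 and 531 in sorted cells, with no overlap. In LPS mice, 16 were higher and 3 lower (all genes 15.2% and 16.7%, median 0.23; 12 and 5 with total counts), with Rps19 the largest at 1.50 ± 0.23 (adjusted p = 3.8e-07) and Rpl8 at 1.18 ± 0.15 (adjusted p = 1.1e-08).

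Against the whole-brain IP of PBS mice, sortIP was lower for 49 of 74 genes and higher for 2, Rps13 and Rpl39 (all genes 29% and 24.7%), with a median of -0.94. Rplp1 was at 3018, 3190.2 and 2735 CPM in sortIP, 2058, 2436 and 2216 in sorted cells and 6474, 6553 and 7167 in the IP. The sortIP lay above sorted cells without overlap, and below the IP, with a log2 difference of -1.18 ± 0.18 (adjusted p = 1.7e-07). The difference from sorted cells did not pass the test, at 0.41 ± 0.18 (adjusted p = 0.072). Rpl22 was at 91.9, 107 and 72.5 CPM in sortIP and 52.3, 87.2 and 75.7 in sorted cells, groups that overlapped (0.32 ± 0.25, adjusted p = 0.34). Microglia markers summed to 143346 to 155928 CPM in sortIP, above the IP (71569 to 78092) and sorted cells (78015 to 79104), and neuron markers to 792 to 1469, 4624 to 5101 and 149 to 251. Border macrophage markers summed to 211 to 400 CPM in sortIP, 1124 to 1252 in the IP and 334 to 486 in sorted cells. Their part was not tested.

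Whether LPS changes the ribosomal protein mRNAs was asked in each kind of library. In the IP, 13 of 74 genes were higher after LPS and 1 lower (all genes 15.5% and 11%), with a median of 0.20, and 9 and 2 with total counts or DESeq2 size factors. In sorted cells, 14 were higher and 0 lower (all genes 17% and 17.6%, median 0.33), and in sortIP 14 were higher and 0 lower (all genes 12.7% and 12.9%, median 0.48). The shares of genes that rose are near those of all genes in the IP and sorted cells, while fewer of the family than of all genes fell. At an unadjusted p under 0.05 edgeR had 0 genes lower in sorted cells and 0 in sortIP, and DESeq2 called 0 lower in either. In IgG, 0 of 74 were called by edgeR or DESeq2 (all genes 1% higher and 0.149% lower), and 4 were higher and 7 lower at an unadjusted p under 0.05, and 3 were called without LPS IgG replicate 4. The count in the IP fell to 9 without PBS IP replicate 2, and that in sortIP to 7 without PBS sortIP replicate 1, 8 without PBS sortIP replicate 3 and 9 without LPS sortIP replicate 1.

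Rpl8, a 60S protein, was called higher in all 3 kinds of library. It was at 3454, 4317, 3678 and 3619 CPM in the IP of LPS mice and 2207, 2211 and 2446 in PBS mice (0.72 ± 0.16, adjusted p = 3.4e-04). In sorted cells it was at 727, 789.8, 1021 and 925 against 612, 545 and 531 (0.62 ± 0.17, adjusted p = 0.0021). In sortIP it was at 1979, 1847, 2098 and 1957 against 1425, 1203 and 1356 (0.57 ± 0.17, adjusted p = 0.0072). The LPS libraries lay above the PBS libraries without overlap in each.

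Rpl4, a 60S protein, was at 1489.6, 1415, 1528 and 1392 CPM in sorted cells of LPS mice and 831, 842 and 841 in PBS mice (0.80 ± 0.15, adjusted p = 2.4e-05), and in the IP at 2639, 2932, 2567 and 3237 and 2545, 2492 and 2712 (0.14 ± 0.15, adjusted p = 0.54). The sorted cells were separated by treatment and the IP libraries were not. Rps6 was at 65.0, 46.3, 61.5 and 46.5 CPM in sortIP of LPS mice and 17.6, 37.0 and 28.7 of PBS mice (1.05 ± 0.32, adjusted p = 0.0087). The sortIP call for Rps6 was lost without PBS sortIP replicate 1, at 0.73, or LPS sortIP replicate 1, at 0.91. Rplp1 did not pass the test in any of the 3: -0.16 ± 0.17 (adjusted p = 0.52) in the IP, 0.12 ± 0.17 (adjusted p = 0.64) in sorted cells and 0.12 ± 0.17 (adjusted p = 0.66) in sortIP. The tagged gene Rpl22 was higher in sorted cells of LPS mice, 147, 83.3, 96.7 and 95.0 against 52.3, 87.2 and 75.7 CPM with overlap (0.56 ± 0.22, adjusted p = 0.036), a call lost without LPS sort replicate 1, at 0.38, or PBS sort replicate 1, at 0.35, and with DESeq2, at 0.51. In the IP its difference was 0.27 ± 0.18 (adjusted p = 0.29). The gene lower in the IP was Rps4x (-0.63 ± 0.20, adjusted p = 0.014), whose groups overlapped. Rpl17 was among the 13 higher there (1.69 ± 0.49, adjusted p = 0.0058), on 26, 16, 14 and 6 reads against 1, 2 and 8.

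As a share of reads the family was 1.79, 1.72, 1.75 and 1.75% in sorted cells of LPS mice, above all 3 PBS libraries, and 2.19, 2.24, 2.22 and 2.09% in sortIP, also above all 3. In the IP it was 3.68, 4.00, 3.82 and 4.21%, overlapping the PBS libraries. Neutrophil and monocyte markers summed to 51.4 to 93.0 CPM in sortIP of LPS mice and to 25.4, 155 and 33.7 of PBS mice. In sorted cells they summed to 13.7 to 38.3 and 9.69 to 23.8. Elane was at 0 reads in all 4 of these groups. Microglia markers were lower in LPS than in PBS mice without overlap, at 63085 to 66915 against 78015 to 79104 CPM in sorted cells and 97258 to 133030.0 against 143346 to 155928 in sortIP. Neuron markers summed to 651, 1358, 1772 and 517 CPM in LPS sortIP replicates 1 to 4, of which replicates 2 and 3 were the shallowest, with 644917, 209147, 166851 and 662404 reads in the 4. Without replicate 2 the number of ribosomal protein genes called higher in sortIP was 14, and without replicate 3 it was 10, against 14 with both. The part of these markers in the LPS differences was not tested.

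Genes that build ribosomes moved further. Of 29 tested genes in a list of ribosome biogenesis factors, 22 rose after LPS in the IP (median 1.11), 26 in sorted cells (median 1.60) and 25 in sortIP (median 1.55). The shares of all genes that rose were 15.5%, 17% and 12.7%, and those that fell 11%, 17.6% and 12.9%. With edgeR 0 of the 29 fell in any of these, also at an unadjusted p under 0.05. In IgG edgeR called 0 of them (all genes 1% higher and 0.149% lower), with 3 higher and 2 lower at an unadjusted p under 0.05. Gnl3, a nucleolar GTPase, was at 225, 233, 299.6 and 265 CPM in sorted cells of LPS mice and 38.5, 41.5 and 46.3 of PBS mice (2.62 ± 0.21, adjusted p = 1.5e-16). Nop58, a core protein of box C/D small nucleolar particles, was at 202, 232, 295 and 168 in sortIP against 29.3, 18.5 and 38.8 (2.79 ± 0.31, adjusted p = 5.3e-10). Ddx21, a nucleolar helicase, rose by 2.11 ± 0.18 (adjusted p = 2.2e-15) in the IP. For these genes every LPS library lay above every PBS library.

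Of 12 genes of the mTOR pathway and its targets, 4 rose and 1 fell in the IP, in sorted cells and in sortIP. All genes rose and fell at 15.5% and 11% in the IP, 17% and 17.6% in sorted cells and 12.7% and 12.9% in sortIP. With so few genes, the 1 that fell is not read as a trait of the list. Myc, a driver of ribosome synthesis, was at 76.8, 64.6, 57.0 and 51.9 CPM in the IP of LPS mice and 4.38, 15.8 and 6.88 of PBS mice (2.77 ± 0.27, adjusted p = 2.5e-13). Eif4ebp1, the inhibitor of cap-dependent translation that mTOR phosphorylates, rose by 2.33 ± 0.19 in the IP, 1.84 ± 0.19 in sorted cells and 1.87 ± 0.21 in sortIP.

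A list of other genes known for TOP mRNAs holds translation factors and also Gas5, Tpt1, Npm1, Hnrnpa1 and Nap1l1. Of 16 tested, 0 rose and 0 fell in the IP, 11 rose in sorted cells and 10 in sortIP. Among all genes, 15.5% rose and 11% fell in the IP. Those shares were 17% and 17.6% in sorted cells, and 12.7% and 12.9% in sortIP. How many of the 16 fell in sorted cells and in sortIP is not given here. The difference of the LPS effect between sorted cells and IP passed its test for 3 of the 16, given below, and that between sortIP and IP was not tested. In the IP 4 were higher and 0 lower at an unadjusted p under 0.05. Pabpc1, the poly(A)-binding protein, was at 588, 665, 821 and 716 CPM against 385, 288 and 307 in sorted cells (1.09 ± 0.16, adjusted p = 3.5e-08) and at 204, 174, 213 and 182 against 227, 208 and 212 in the IP (-0.15 ± 0.15, adjusted p = 0.51). Eef1g, an elongation factor subunit, rose by 1.57 ± 0.20 (adjusted p = 4.3e-09) in sortIP.

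**Figure D5:**
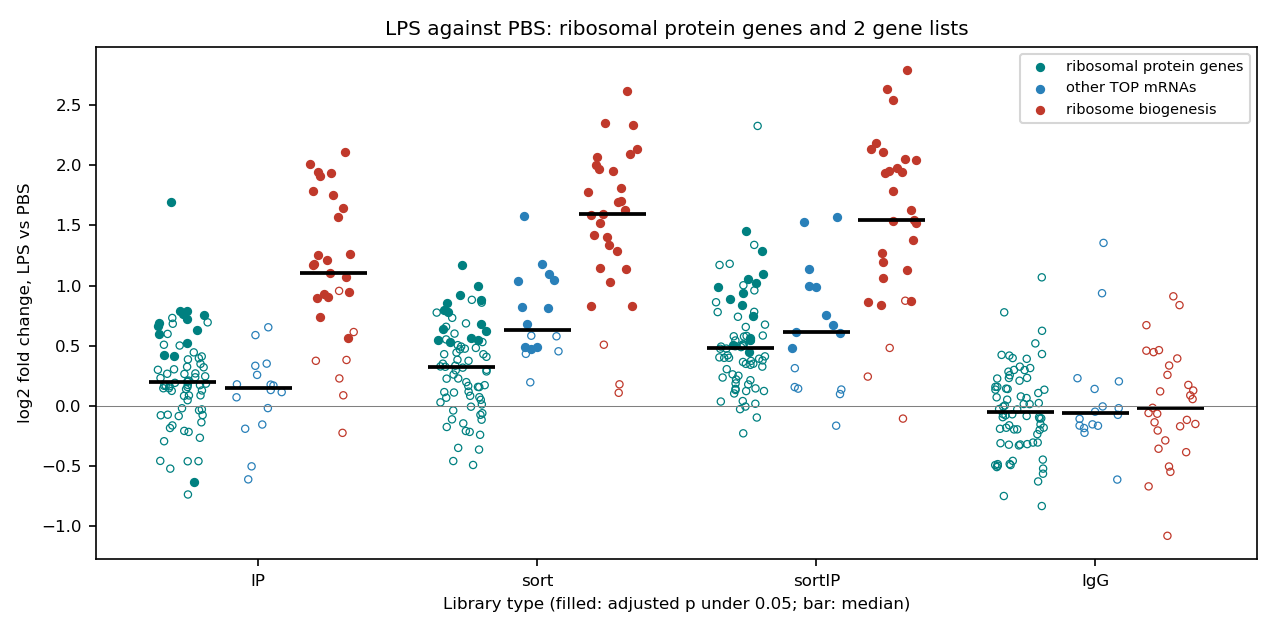
Log2 fold change of LPS against PBS in IP, sorted cells, sortIP and IgG for ribosomal protein genes (74), other TOP mRNAs (16) and ribosome biogenesis genes (29) (each point a gene; filled, adjusted p under 0.05; bar, median). Biogenesis genes have medians of 1.11, 1.60 and 1.55 in IP, sorted cells and sortIP, ribosomal protein genes of 0.20, 0.33 and 0.48, and IgG shows no filled point.

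A test of the difference between the LPS effect in sorted cells and that in the IP called 0 of 74 ribosomal protein genes with edgeR (all genes 0.795% higher and 2.41% lower). At an unadjusted p under 0.05, 8 were higher and 3 lower, and DESeq2 called 2. Rpl39 had the highest estimate of the 74, at 1.22 ± 0.46 (adjusted p = 0.17). Among the other TOP mRNAs, Pabpc1 (1.25 ± 0.22, adjusted p = 1.2e-04), Npm1 (1.79 ± 0.48, adjusted p = 0.037) and Eif3e (1.55 ± 0.44, adjusted p = 0.032) had a larger LPS effect in sorted cells. The difference in sortIP against sorted cells between LPS and PBS mice called 0 of 74 with edgeR and with DESeq2 (all genes 0% in either direction), with 9 genes higher and 0 lower at an unadjusted p under 0.05. The shares of all genes in this paragraph are for adjusted p. None is given at the unadjusted threshold, so the counts there are not read as particular to the family.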

How the data were processed

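The deposited tables hold the authors' raw read counts per gene, 1 column per library and 1 table per experiment. Per the submitters' processing notes, bcl2fastq, HISAT 0.1.5, HOMER and mm9 were used, and the library kit, strand setting and treatment of reads shared between gene copies are not given in the sources used here. The members and gene lists were chosen with earlier results of these data known. Libraries were grouped by the labels, 67 in all, with totals from 166851 to 3513317 counts, and no count interval is given since replicates carry the error. With edgeR 4.0.16 in R 4.3.3, genes were filtered with filterByExpr (minimum count 10), scaled by TMM and tested by the quasi-likelihood F test with all groups of an experiment in 1 fit and no replicate block. P-values were adjusted by Benjamini-Hochberg over all genes tested, and an adjusted p under 0.05 was called. Counts at an unadjusted p under 0.05 are given without the share of all genes at that threshold, so no excess over all genes is read from them. CPM uses TMM-scaled library sizes. Libraries come from individual mice, per the series' design text, and sorted and pulled-down RNA can come from the same animal.

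Named genes were, per comparison, up to 5 called members in each direction with the largest changes, at least 10 CPM and no overlap between groups, together with Rpl22, the P stalk, Rpsa, Rps6, Rps27l, the tissue-restricted paralogs, the ribosomal genes outside the rule and the 2 called genes of each pathway list with the largest changes. Other members were chosen for the text after their values were seen. Over 78 replicate pairs, chi-square per degree of freedom was 1.50 to 14.8, so none agreed within sampling noise. Alternatives were DESeq2 1.42.0, its size factors, total-count scaling, TMM without these genes, no filter, the compared groups alone, a replicate block and each library left out. The fit was tested on simulated counts with known changes. Results of some single genes are not reported here.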

Additional observations from a re-analysis of the deposited data

Results flagged for a closer look

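In groups of 4 libraries, 8 of the 105 group values examined had 1 library far from the other 3, and chance alone does this in about 1 in 20 groups. In the digest experiment, Rpl22 was at 81.1 CPM in IgG replicate 4, with the others at 105 to 106, Rpsa was at 889.7 CPM in IgG replicate 1, with the others at 564 to 597, and Rplp0 was at 535 CPM in replicate 3 of the cells sorted after the digest, with the others at 446 to 457. IP replicate 4 of the LPS mice stood apart for 3 genes: Rpl22 at 263 CPM (others 153 to 154), Rps27l at 77.8 CPM (others 66.4 to 67.9) and Rpl30 at 60.5 CPM (others 22.4 to 25.1). Rpl22l1 was at 25.8 CPM in IP replicate 3 of the LPS mice, with the others at 7.56 to 10.2. Rps4x was at 115 CPM in sort replicate 1 of the LPS mice, with the others at 91.6 to 94.6.

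The log2 fold changes of IP against IgG pointed in opposite directions between experiments for 3 genes, and the difference between experiments was not tested. Rpl30 was at -1.35 in the driver experiment, 0.60 in the digest experiment and 0.90 in PBS mice of the LPS experiment. Rps4x was at -2.14 in the driver experiment and 1.84 in the LPS experiment. Rpsa was at 1.23, -0.43 and 0.76 in the driver, digest and LPS experiments. Rpl3 in sorted cells against IP was at 0.98 in the digest experiment and -0.64 in the LPS experiment, also untested.

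The LPS effect differed between sorted cells and IP, by edgeR's test of the difference, for 5 genes of the pathway lists and none of the ribosomal protein genes. Maf1, a repressor of RNA polymerase III, was at -0.97 (adjusted p = 0.038), Ncl, a nucleolar protein, at 0.96 (adjusted p = 0.0094), Pabpc1 at 1.25 (adjusted p = 1.2e-04), Eif3e at 1.55 (adjusted p = 0.032) and Npm1 at 1.79 (adjusted p = 0.037), all as the log2 effect in sorted cells minus that in IP.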

How the results depend on the processing

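Counts below are ribosomal protein genes called. Total-count scaling turned the balance of 2 comparisons: IP against IgG in CX3CR1Cre mice had 25 calls (12 higher, 13 lower, from 17 and 9), and sortIP against sorted cells in PBS mice had 27 (7 higher, 20 lower, from 13 and 11). The first of these was 15 and 13 with the groups alone and 14 and 12 with DESeq2 size factors. The second was 20 and 9 with the groups alone, 16 and 6 with DESeq2 size factors, 17 and 5 with DESeq2, 19 and 3 without the filter and 16 and 7 with TMM computed without these genes. Total-count scaling gave 26 calls instead of 40 for the tamoxifen-treated IP against the IP without tamoxifen. It also changed the split to 5 higher and 17 lower for the CX3CR1Cre IP against the tamoxifen-treated IP, to 12 and 5 for sortIP against sorted cells in LPS mice and to 9 and 2 for LPS in the IP, the last also with DESeq2 size factors. Fitting only the compared groups gave 13 calls instead of 7 for IP against input without tamoxifen, 22 instead of 14 for LPS in the IP (17 higher, 5 lower), 22 instead of 14 for LPS in sorted cells, and 47 higher and 4 lower for IP against IgG in the digest experiment. For the digest, where edgeR called 0, the groups alone gave 4, DESeq2 gave 3 and no filter gave 1. For the difference of the LPS effect between sorted cells and IP, where edgeR called 0, the groups alone gave 3, DESeq2 gave 2, DESeq2 size factors gave 2, total-count scaling gave 2, no filter gave 1 and the replicate block gave 1.

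With 1 library left out, the calls ranged from 1 to 6 for IP against input without tamoxifen, 9 to 14 for LPS in the IP, 0 to 3 for LPS in IgG, 7 to 15 for LPS in sortIP, 0 to 1 for the difference of the LPS effect and 11 to 21 for sortIP against sorted cells in PBS mice. In the other 18 comparisons, counts stayed within 1.5 times the reported one when a library was left out. Of the settings tried on single named genes, 1959 kept direction and call, 136 kept direction and lost the call, and none reversed. These genes were the called members with the largest changes, at least 10 CPM and no overlap, together with Rpl22 where called. Being chosen that way from the same data, they were unlikely to reverse. Genes that were not called, and other genes whose groups overlapped, were not in this tally. The cause of these changes was not tested.

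Replicate numbers were shared between groups. The median correlation of the deviations of same-numbered libraries was 0.016, 0.018 and 0.027 in the driver, digest and LPS experiments, over 0.1 in 1 of 24, 2 of 21 and 6 of 42 pairs, against 1 of 42, 0 of 63 and 1 of 108 pairs with different numbers. These correlations do not decide whether the numbers pair the samples, and the labels do not say that a number marks an animal. In the LPS experiment the titles use the same running numbers for IP, IgG, sorted and sortIP libraries, so pairing is possible there. The main fit did not use it. A replicate block moved 1 count, given above, by more than 1.5 times, and none was fitted for LPS against PBS or driver against driver, which compare different mice. Depth limits the sortIP libraries (166851 to 669508 counts) and the IP without tamoxifen most.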
